A study of Mus musculus with 6 samples.

Results

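The members examined are the variable (V), diversity (D) and joining (J) gene segments of the mouse T-cell receptor α locus (Tra) and β locus (Trb). They were taken as every row of the count table whose mouse symbol, looked up from its Entrez identifier, is Trav, Traj, Trbv, Trbd or Trbj followed by a number, and the constant regions were left out. The rule found 206 of 26332 rows, of which 116 were Trav, 51 Traj, 24 Trbv, 2 Trbd and 13 Trbj.

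RNA was sequenced from double negative 3 (DN3) thymocytes, sorted from single mice as CD25+ cells negative for CD8, CD44, TCRβ, CD3, a CD1d tetramer and NK1.1. There were 2 Tcf7 knock-out (KO) libraries, KO 1 from a male and KO 2 from a female, and 4 wild-type (WT) libraries, WT 1 to WT 3 from females and WT 4 from a male, all on a C57BL/6 strain background. Tcf7 encodes the transcription factor TCF-1, and the series asks what it does in these cells. The labels give neither the mice's age nor which part of Tcf7 the knock-out allele lacks.

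As background, a functional T-cell receptor gene is assembled in the developing thymocyte by cutting and joining 1 V, (for β) 1 D and 1 J segment out of arrays of germline segments, a reaction carried out by the RAG recombinase. The Trb locus is rearranged at the DN3 stage, and cells whose β chain pairs with the pre-Tα chain pass the β-selection checkpoint. The Tra locus is normally rearranged later, at the double positive stage, and its first joins use the V segments nearest the J array and the J segments nearest the V array. Trdc and the other δ segments lie between Trav and Traj, and some V segments, whose names carry "dv", can join to either δ or α. Joins made in a cell are inherited by its daughters.

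Total counts were 19589938 in KO 1 and 13673860 in KO 2, against 23711513 to 41666797 in the WT libraries. Tcf7 itself stood at 1132 and 1020 CPM (counts scaled to a common library size with TMM factors) in the KO libraries, against 2093 to 2325 CPM in WT, so the row was lower but far from empty in KO. The 7 DN3 marker genes summed to 6278 and 6434 CPM in KO, against 6841 to 7284 CPM in WT, and none was at 0. In this list Il2ra, which encodes the CD25 of the sort, and Ptcra, which encodes pre-Tα, were called lower in KO, Dtx1, a Notch target, was called higher, and 4 were not called. The 7 double positive markers summed to 277 CPM in KO 1 and 2267 CPM in KO 2, against 182 to 217 CPM in WT, and Cd4 was at 0 in KO 1. The 6 markers of mature αβ T cells summed to 1371 and 1382 CPM in KO, against 519 to 683 CPM in WT, and all 6 were called higher. The 6 γδ markers summed to 2028 and 1758 CPM in KO, against 1515 to 1581 CPM in WT, but they went both ways. Cd163l1 (630 and 569 CPM in KO, 40.1 CPM in WT on average), Sox13 and Blk were called higher. Trgc1 (227 and 201 CPM in KO, 415 CPM in WT on average) was called lower. Trgc2 and Trdc lay below every WT library in both KO libraries but were not called. The 8 B-cell markers summed to 537 and 1081 CPM in KO, against 236 to 265 CPM in WT, with Ebf1, Ms4a1, Pax5 and Igkc at 0 in KO 1. Natural killer markers summed to at most 2.09 CPM in any library. Myeloid markers summed to 5.17 and 8.35 CPM in KO, against 17.4 to 19.4 CPM in WT. Among them Lyz2 was called lower (0.153 and 1.19 CPM in KO, 17.3 CPM in WT on average). Itgam was called higher (4.81 and 6.86 CPM in KO, 0.621 CPM in WT on average). The 4 erythroid markers found summed to 2.76 and 33.1 CPM in KO, against 3.62 to 14.3 CPM in WT. The part of these other cell types in the segment values was not tested, and in bulk RNA more cells that use a segment and more RNA of it per cell cannot be told apart. The KO libraries differed from each other in most segment values below, so each is given on its own.

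The germline sequences of the segments on which the results turn are shown first, so that it can be seen how far reads of related segments can be told apart. They are those of GENCODE M21 (GRCm38, the build mm10, all on the plus strand), written 5′ to 3′. The last 60 bases of 3 Trbv13 segments are aligned without gaps, and capitals mark the 13 positions at which they differ from each other. These stretches lie at chr6:41130526-41130585 for Trbv13-3, chr6:41116409-41116468 for Trbv13-1 and chr6:41121773-41121832 for Trbv13-2.
Trbv13-3: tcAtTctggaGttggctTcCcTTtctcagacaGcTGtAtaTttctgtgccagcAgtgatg
Trbv13-1: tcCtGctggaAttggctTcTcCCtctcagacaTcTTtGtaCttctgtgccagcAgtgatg
Trbv13-2: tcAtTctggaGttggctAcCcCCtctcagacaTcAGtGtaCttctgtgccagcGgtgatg

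Over their whole V exons Trbv13-3 and Trbv13-2 were 91.8% identical, with 24 differences in 294 aligned columns. Trbv13-1 was 88.8% identical to Trbv13-2 and 86.1% to Trbv13-3. No Trbv segment had another Trbv above 97% identity, so reads of different Trbv segments can be separated over most of their length. The Trav array is different, because large parts of it are repeated as d and n copies. Of the 114 Trav V exons with a sequence, 85 had another Trav above 97% identity and 36 had an identical one, so the values of d, n and unlettered Trav copies are uncertain.

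The last 60 bases of the Trav segments most counted in KO 1, in KO 2 and in WT are given next, with the codon of the conserved cysteine that opens the joined region in capitals. This codon was found as the TGN in a row of TAN, NNN, TGN and GC, a stretch held by 100 of 114 Trav and 18 of 24 Trbv exons on the coding strand and by none on the other. The stretches lie at chr14:53845768-53845827 for Trav19, chr14:53078986-53079045 for Trav14d-3-dv8 and chr14:53807056-53807115 for Trav17.
Trav19: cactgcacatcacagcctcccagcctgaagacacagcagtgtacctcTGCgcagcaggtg
Trav14d-3-dv8: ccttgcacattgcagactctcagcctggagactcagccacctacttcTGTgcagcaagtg
Trav17: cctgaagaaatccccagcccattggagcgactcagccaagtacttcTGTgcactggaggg

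Trav14d-3-dv8 differed from its closest copy in the unlettered part of the array, Trav14-3, at 8 positions (97.4% identity). The D segments are the shortest members, at 12 and 14 bases, and lie at chr6:41533201-41533212 and chr6:41542163-41542176.
Trbd1: gggacagggggc
Trbd2: gggactgggggggc

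The J segments of 46 to 66 bases are shown for a choice of those most counted in a KO library or called between KO and WT, with the J motif, a row of GGN, NNN, GGN and AC, in capitals where it is present. The motif, which encodes a Gly-x-Gly-Thr stretch of the joined chain, was found on the coding strand in 42 of 51 Traj and 9 of 13 Trbj segments. On the other strand it was in 0 Traj and 1 Trbj segment. Traj3, whose letters are shown without capitals, does not hold it. The Trbj segments lie at chr6:41533864-41533911 (Trbj1-1), chr6:41542754-41542803 (Trbj2-1), chr6:41543453-41543501 (Trbj2-5) and chr6:41543810-41543856 (Trbj2-7). The Traj segments lie at chr14:54204422-54204481 (Traj15), chr14:54216291-54216353 (Traj4) and chr14:54217292-54217357 (Traj3).
Trbj1-1: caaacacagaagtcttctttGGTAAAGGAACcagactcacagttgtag
Trbj2-1: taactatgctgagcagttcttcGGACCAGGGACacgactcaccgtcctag
Trbj2-5: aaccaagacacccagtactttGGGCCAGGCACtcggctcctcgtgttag
Trbj2-7: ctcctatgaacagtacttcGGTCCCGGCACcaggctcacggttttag
Traj15: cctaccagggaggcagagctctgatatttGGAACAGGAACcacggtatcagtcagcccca
Traj4: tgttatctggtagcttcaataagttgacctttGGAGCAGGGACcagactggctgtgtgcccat
Traj3: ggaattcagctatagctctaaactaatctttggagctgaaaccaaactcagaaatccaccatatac

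The classes were first summed per library. Trbv summed to 961 CPM in KO 1 and 1469 CPM in KO 2, against 366, 360.1, 359 and 345 CPM in WT 1 to WT 4, so both KO libraries stood above all WT libraries. Trbj summed to 230.2 and 89.8 CPM in KO, against 74.8, 79.6, 76.6 and 87.8 CPM in WT. KO 2 lay just above the highest WT library there, while KO 1 was well above it. Trbd was below WT in 1 KO library only, at 2.56 CPM in KO 1 and 12.7 CPM in KO 2, against 10.8 to 12.2 CPM in WT. All Trb segments together reached 1193 and 1572 CPM in KO, against 449 ± 3.34 CPM in WT (SD, n = 4), and the log2 ratio of the KO mean to the WT mean was 1.62.

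At the Tra locus the Traj and Trav sums differed in pattern. Traj summed to 12.4 and 19.8 CPM in KO (242 and 265 counts), against 0.169, 0.167, 0.230 and 0.527 CPM in WT (7, 4, 6 and 15 counts). The ratio of the KO mean to the WT mean was 58.8, from 507 KO counts and 32 WT counts, and each KO library was above every WT library. Trav summed to 37.7 CPM in KO 1, close to the 36.6, 33.3, 33.6 and 32.1 CPM of the WT libraries, and to 216 CPM in KO 2. The joint Trav and Traj sum was 50.1 and 235 CPM in KO, against 34.2 ± 1.82 CPM in WT (SD, n = 4). The log2 ratio of the means was 2.06, and it was 0.55 without KO 2. Sums over members carry no test.

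**Figure D1:**
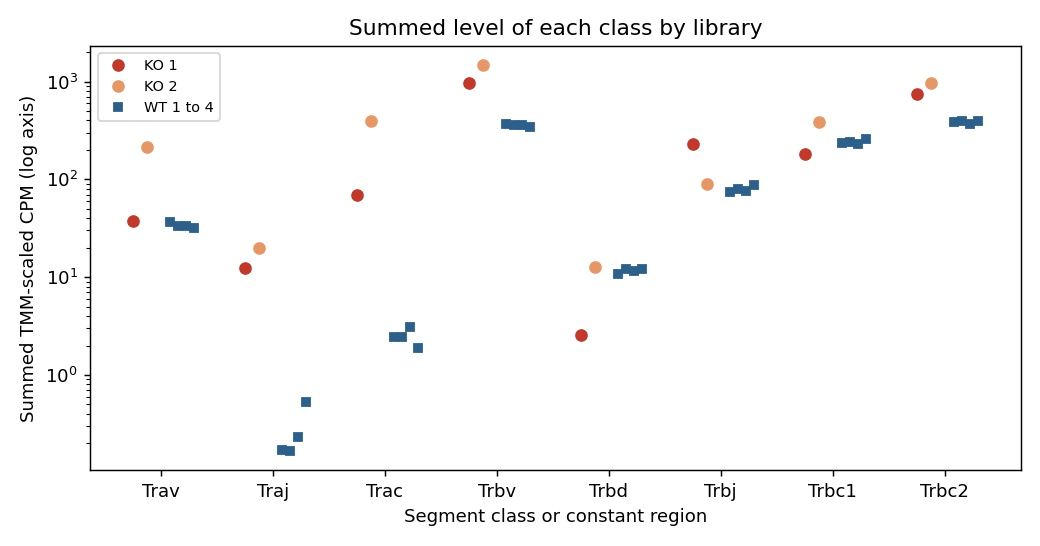
Summed TMM-scaled CPM (log axis) of each segment class and of the constant regions, with 1 point per library, KO 1 and KO 2 as circles and WT 1 to 4 as squares. Trbv, Traj and Trac are above every WT library in both KO libraries, Trav is so clearly only in KO 2 (216 CPM), and Trbd is low in KO 1 (2.56 CPM).

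The constant regions, which every transcript of a joined locus carries, were set beside the segments. Trac stood at 69.5 and 394 CPM in KO, against 2.47 ± 0.477 CPM in WT (SD, n = 4), a log2 fold change of 6.60 (edgeR adjusted p = 0.000675). Trbc2 stood at 739 and 976 CPM in KO, against 384 ± 11.7 CPM in WT, a log2 fold change of 1.18 (edgeR adjusted p = 0.00184). Trbc1, at 183 and 388 CPM in KO and 242 ± 12.3 CPM in WT, did not pass (edgeR adjusted p = 0.490). The ratio of Trav counts to Trac counts was 0.543 and 0.547 in KO, against 10.97 to 16.9 in WT, and the ratio of Trbv to Trbc1 plus Trbc2 was 1.04 and 1.08 in KO, against 0.529 to 0.599 in WT. Lengths differ between these classes, so the ratios serve to compare libraries, not levels of genes. Trdc, the δ constant region, stood at 22.0 and 297 CPM in KO, against 302 to 340 CPM in WT, where Trac was low.

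Across all genes, 13294 passed the filter on low counts, and 4076 of them (30.7%) were called between KO and WT by edgeR's quasi-likelihood test at an adjusted p under 0.05. Of the 206 members 68 had no count in any library, and 53 passed the filter. Of these 53, 9 were called higher in KO and 3 lower, and 41 were not called. The 22.6% of tested members that were called is below the share over all genes, and members passed the filter through whichever group was high, so the count is no evidence about the class. The background is 14.1% for higher and 16.5% for lower calls. The median log2 fold change was 0.37 over the 53 tested members and -0.04 over all tested genes. By class, Trbv gave 1 higher call among 21 tested, Trbj 3 higher and 1 lower among 13, Trbd none of 2, Trav 3 higher and 2 lower among 14, and Traj 2 higher among 3.

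The few calls stood beside large differences in single libraries. KO 1 was above the WT range in 21 and below it in 31 of the 53 tested members, and KO 2 was above it in 33 and below it in 14. Over all tested genes these shares were 40.5% and 46.5% in KO 1 and 38.0% and 45.0% in KO 2. In 28 members (52.8%) the KO libraries lay outside the WT range on opposite sides, against 21.5% of all tested genes. Of these 28 members 24 were Trb segments, among them 17 of the 21 tested Trbv. In 11 members both KO libraries were above all WT libraries, and in 7 both were below. For all tested genes the corresponding shares were 22.9% and 28.6%.

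Trbv use differed between the KO libraries and was nearly the same in all WT libraries. Use here means a segment's share of the RNA counts of its class, which does not show which segments were joined. In KO 1 the most counted Trbv was Trbv13-3, with 10357 of 18783 Trbv counts or 55.1% (95% Wilson interval 54.4 to 55.9%). In KO 2 it was Trbv13-1, with 9518 of 19706 counts or 48.3% (47.6 to 49.0%). In every WT library it was Trbv13-2, with 25.4%, 25.7%, 25.3% and 30.6% of Trbv counts in WT 1 to WT 4, followed by Trbv12-2 and Trbv5. Such intervals treat each read as independent and leave out the spread between mice. The amplified reads carry no molecular identifiers, so copies of 1 molecule can count more than once. The intervals can thus be too narrow even for counting error. The same segments led each library when counts were divided by segment length.

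The evenness of use can be written as the effective number of segments, the inverse of the summed squared shares. For Trbv it was 2.64 in KO 1 and 3.88 in KO 2, against 9.72, 9.65, 9.85 and 7.75 in WT 1 to WT 4. In both KO libraries the Trbv counts were thus spread over fewer segments in effect than in any WT library. The most counted segment took 24.95 percentage points more of the Trbv counts in KO than in WT on average. Across the 24 Trbv segments the correlation of counts was -0.053 between KO 1 and KO 2. It was 0.322 to 0.349 between KO 1 and WT, 0.089 to 0.161 between KO 2 and WT, and 0.992 to 0.999 between WT libraries. These correlations describe segments that share a library and are not tests.

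**Figure D2:**
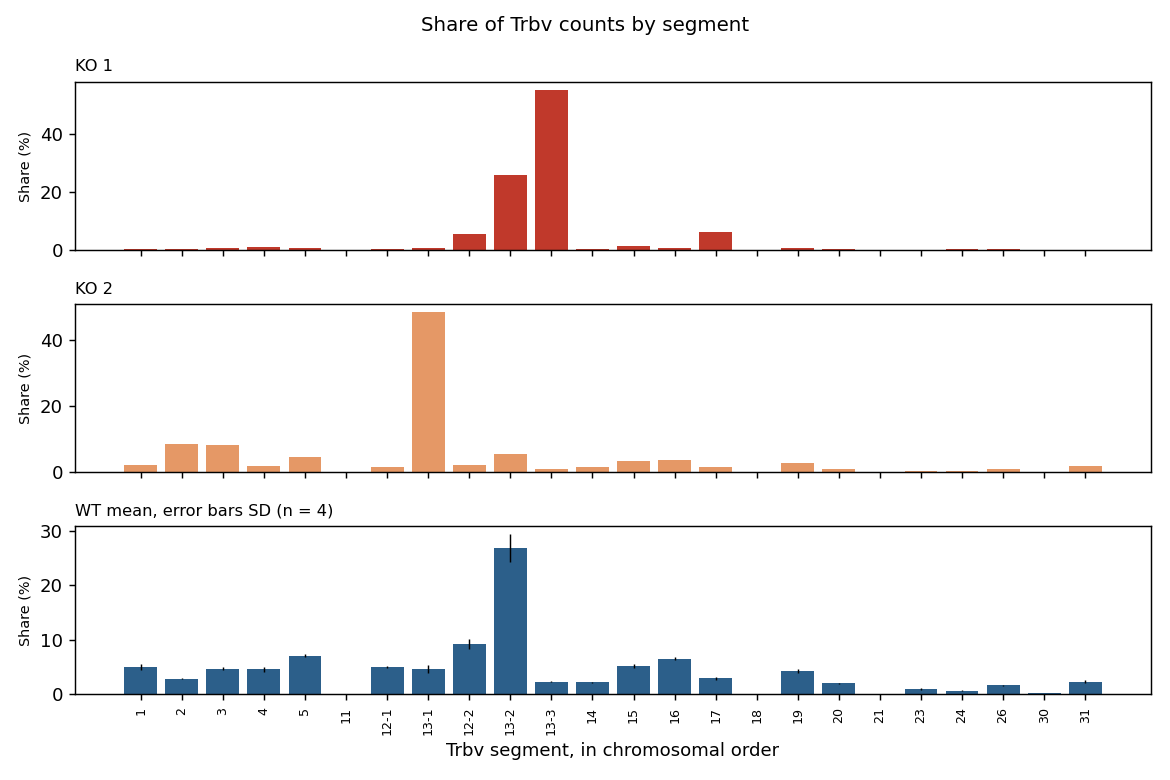
Share of Trbv counts (percent) held by each of the 24 Trbv segments in chromosomal order, in KO 1, KO 2 and as the WT mean with SD (n = 4), each panel on its own scale. The tallest bar is Trbv13-3 in KO 1 (55.1%), Trbv13-1 in KO 2 (48.3%) and Trbv13-2 in WT.

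The leading segments of one KO library were not raised to a like degree in the other. Trbv13-3 stood at 529.7 CPM in KO 1 and 13.4 CPM in KO 2, against 8.38, 7.77, 8.20 and 7.34 CPM in WT. Both KO values were above the WT range, 1 of them by far, and the log2 fold change of 3.27 ± 1.52 (SE) did not pass (edgeR adjusted p = 0.161). It passed with DESeq2 (adjusted p = 0.0241) and in edgeR without the sex term (adjusted p = 0.0159, log2 fold change 5.10). Over the alternatives whose KO effect uses both KO mice (all but those without KO 1, KO 2 or WT 4), the adjusted p ran from 0.0159 to 0.699. Trbv13-1 stood at 8.08 CPM in KO 1 and 709.6 CPM in KO 2, against 17.1, 18.0, 18.7 and 12.3 CPM in WT. KO 1 was below and KO 2 above every WT library, and the log2 fold change of 3.86 ± 1.24 did not pass (edgeR adjusted p = 0.0689). It passed with DESeq2 (adjusted p = 0.0144) and in edgeR without the sex term (adjusted p = 0.0379), within a range of 0.0144 to 0.879 over the alternatives that use both KO mice. Its log2 fold change was -0.62 without KO 2, and 5.32 without WT 4, where the sex term takes up KO 1. Trbv13-2 stood at 249 CPM in KO 1 and 79.0 CPM in KO 2, against 93.1, 92.5, 91.0 and 106 CPM in WT, again on opposite sides of WT.

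The 3 Trbv13 segments together held 81.9% and 54.6% of Trbv counts in KO, against 32.4 to 36.3% in WT. Outside this family KO 2 was high in Trbv2, at 3.53 CPM in KO 1 and 123 CPM in KO 2, against 9.41 to 10.9 CPM in WT. Trbv3 followed the same pattern, at 5.17 CPM in KO 1 and 119 CPM in KO 2, against 15.9 to 18.5 CPM in WT (edgeR adjusted p = 0.241). Trbv5 stood at 5.68 CPM in KO 1 and 67.6 CPM in KO 2, against 23.8 to 26.5 CPM in WT (edgeR adjusted p = 0.758). Of the 17 tested Trbv with KO libraries on opposite sides, 16 were low in KO 1 and high in KO 2, as these were. Trbv13-2 was the reverse.

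Trbv17 was the Trbv segment that passed the test. It stood at 59.6 and 23.1 CPM in KO, against 10.1, 9.52, 11.96 and 9.55 CPM in WT 1 to WT 4. Both KO libraries were above all WT libraries, and it rose by a log2 fold change of 1.77 ± 0.36 (SE, edgeR adjusted p = 0.0197). Trbv12-2, which lies between Trbv13-1 and Trbv13-2, stood at 52.9 and 31.9 CPM in KO, against 33.9, 30.7, 30.3 and 36.1 CPM in WT, and was not called (edgeR adjusted p = 0.276). Of the remaining Trbv, Trbv11 had no count in any library, and Trbv18 and Trbv21 had counts in WT only (4 and 34 counts).

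The Trbj segments lie in 2 clusters, each behind its own D segment and in front of its own constant region, so that a join to Trbj2 is transcribed with Trbc2. Trbj2 segments held 67.6% of Trbj counts in KO 1 (Wilson interval 66.2 to 68.9%) and 76.6% in KO 2 (74.1 to 78.9%), against 53.5%, 52.1%, 50.9% and 48.3% in WT 1 to WT 4. The Trbc2 share of Trbc counts was likewise 80.2% and 71.6% in KO, against 60.2 to 62.1% in WT. Both shares were thus higher in each KO library than in every WT library, by 20.9 percentage points on average for Trbj2. Trbc1 and Trbc2 are near-identical genes, and the reads they share could be split between them.

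Within the Trbj2 cluster 3 segments rose in KO. Trbj2-7, the last of the array, stood at 26.7 and 25.2 CPM in KO, against 12.4, 14.7, 12.8 and 11.8 CPM in WT. Both KO libraries were above all WT libraries and close to each other, with a log2 fold change of 1.03 ± 0.14 (SE, edgeR adjusted p = 0.00568). Trbj2-5 stood at 6.24 and 18.3 CPM in KO, against 4.345, 3.01, 4.60 and 3.79 CPM in WT (log2 fold change 1.65, edgeR adjusted p = 0.0262). Trbj2-4 stood at 3.68 and 6.41 CPM in KO, against 2.66, 2.26, 2.26 and 2.39 CPM in WT (log2 fold change 1.11, edgeR adjusted p = 0.0338). In all 3 no KO library overlapped WT.

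Trbj1-1, the J segment nearest Trbd1, was the Trb segment that fell. It stood at 1.84 and 4.32 CPM in KO, against 10.3, 9.69, 10.3 and 13.9 CPM in WT, a log2 fold change of -1.86 ± 0.41 (SE, edgeR adjusted p = 0.0245). It was among the 3 most counted Trbj in neither KO library and in all 4 WT libraries. Trbj1-2 stood at 4.96 and 3.65 CPM in KO, against 4.997, 5.72, 5.67 and 7.73 CPM in WT, below WT in both KO libraries but not called (edgeR adjusted p = 0.0689). It passed with DESeq2 (adjusted p = 0.0491), in a range of 0.0491 to 0.871 over the alternatives that use both KO mice.

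The other Trbj segments split by mouse. Trbj2-1 stood at 97.03 CPM in KO 1 and 14.2 CPM in KO 2, against 14.6, 14.7, 12.2 and 17.3 CPM in WT, so that KO 2 lay within the WT range. It made up 42.2% of Trbj counts in KO 1 (40.7 to 43.6%), and was not called (log2 fold change 1.14 ± 0.59, edgeR adjusted p = 0.203). Trbj1-3 stood at 18.6 CPM in KO 1 and 1.86 CPM in KO 2, against 4.78 to 7.31 CPM in WT, on opposite sides. Trbj1-4, Trbj1-5, Trbj1-7, Trbj2-2 and Trbj2-3 also lay above WT in KO 1 and below it in KO 2. Trbj1-6 stood at 11.5 and 4.55 CPM in KO, against 4.25 to 4.81 CPM in WT. None of these 8 segments passed the test.

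**Figure D3:**
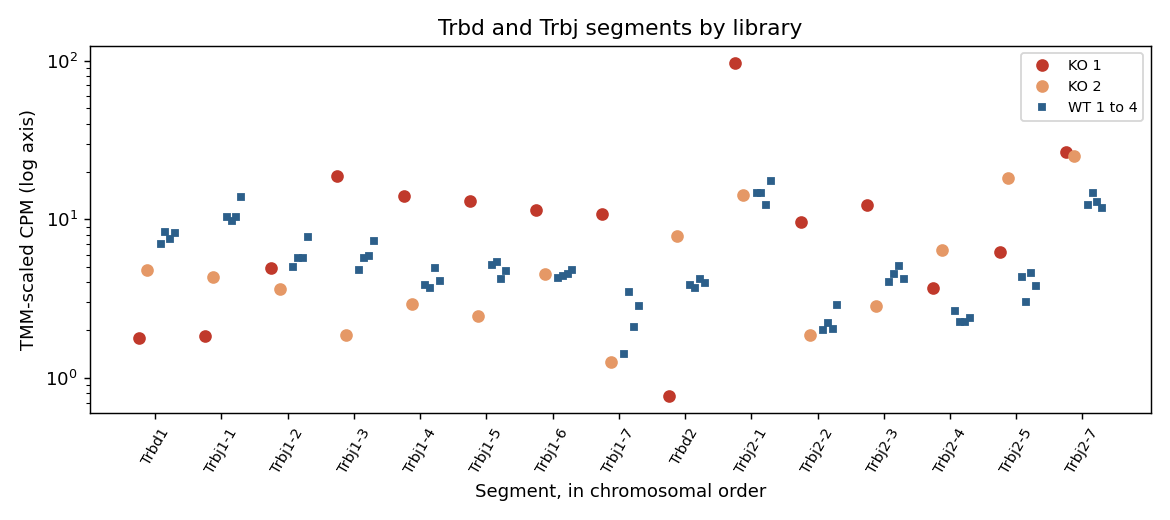
TMM-scaled CPM (log axis) of the 2 Trbd and 13 Trbj segments in chromosomal order, with KO 1 and KO 2 as circles and WT 1 to 4 as squares. Trbj2-7 is at 26.7 and 25.2 CPM in KO above all WT points, Trbj1-1 is below all WT points, and 6 Trbj segments have KO 1 above and KO 2 below WT.

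The D segments, which supply the middle of the joined β chain, are the shortest features counted, and how many bases of overlap the counting required is not given in the sources used here. Trbd1 stood at 1.79 and 4.77 CPM in KO, against 6.98, 8.35, 7.47 and 8.26 CPM in WT. Both KO libraries were below all WT libraries, and the log2 fold change of -1.24 ± 0.38 (SE) did not pass (edgeR adjusted p = 0.0619). It passed with DESeq2 (adjusted p = 0.0155), in a range of 0.0155 to 0.328 over the alternatives that use both KO mice. Trbd2 stood at 0.767 CPM in KO 1 and 7.90 CPM in KO 2, against 3.84, 3.68, 4.22 and 3.97 CPM in WT, on opposite sides (edgeR adjusted p = 0.984). Trbd1 held 70.0% of 50 Trbd counts in KO 1 (56.2 to 80.9%) and 37.6% of 170 in KO 2 (30.7 to 45.1%), against 63.9 to 69.4% in WT.

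Trav use also differed between the KO libraries. In KO 1 the leading segment was Trav19, with 223 of 737 counts or 30.3% (Wilson interval 27.1 to 33.7%), then Trav17 (10.7%) and Trav5-4 (8.01%). In KO 2 it was Trav14d-3-dv8, with 1913 of 2892 counts or 66.1% (64.4 to 67.9%), then Trav14d-1 (5.05%). In WT the leaders were Trav17, Trav15-2-dv6-2 and Trav18, with 22.1 to 24.9%, 19.3 to 19.6% and 14.9 to 17.4% of Trav counts, in the same order in all 4 libraries. These WT leaders lie in the end of the array that faces Traj.

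The effective number of Trav segments was 7.95 in KO 1 and 2.25 in KO 2, against 6.94, 6.80, 7.25 and 7.40 in WT 1 to WT 4. KO 1 was thus slightly more even than WT and led by a segment that was near 0 there, and KO 2 was dominated by 1 segment. Across the 116 Trav segments the correlation of counts was -0.003 between KO 1 and KO 2. It was 0.255 to 0.268 between KO 1 and WT, 0.046 to 0.051 between KO 2 and WT, and 0.984 to 0.996 between WT libraries, again as a description.

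**Figure D4:**
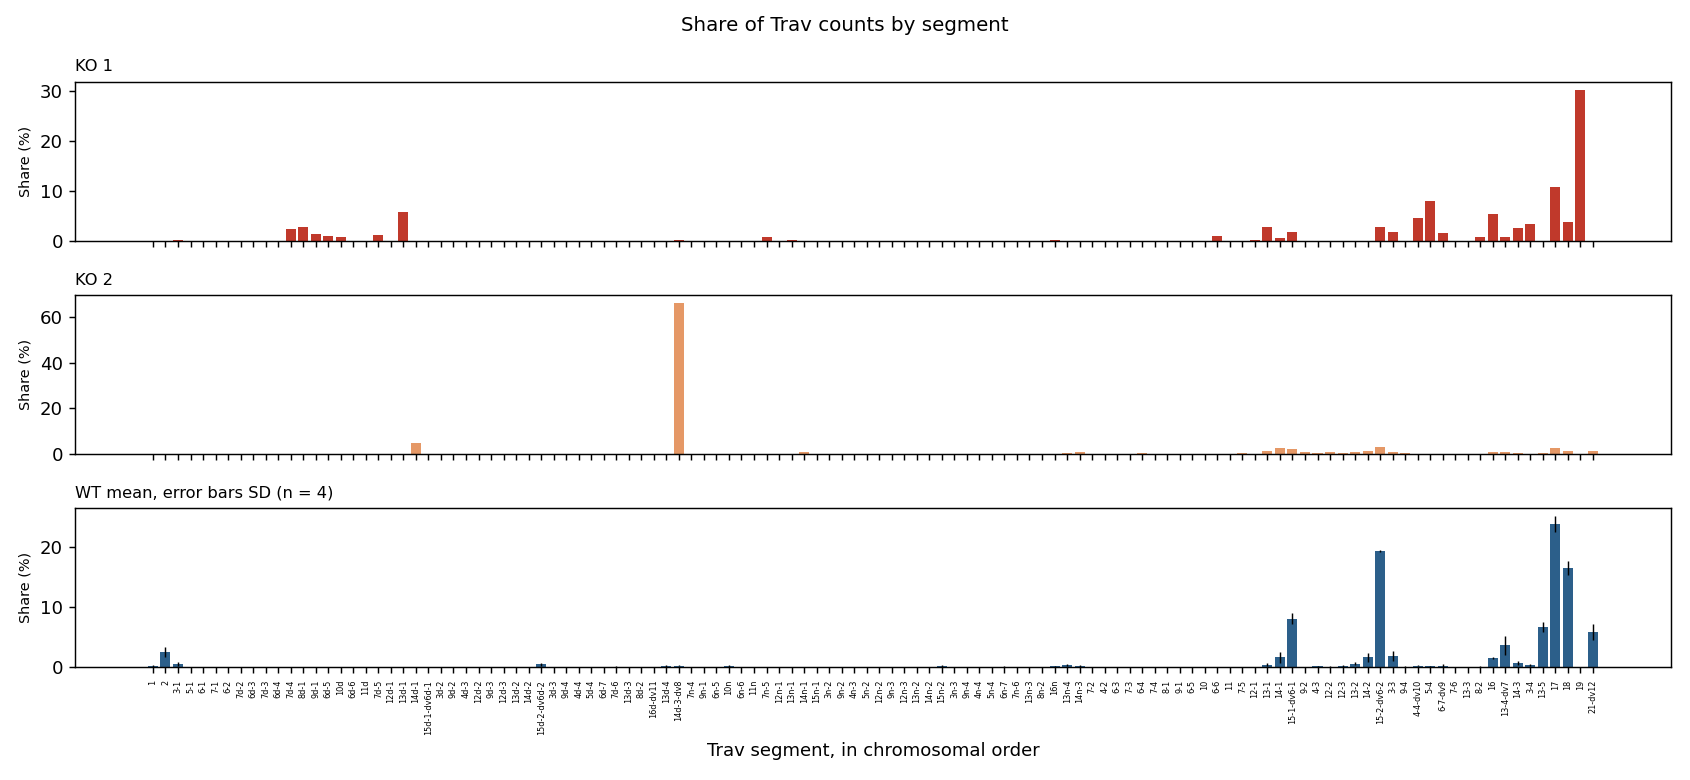
Share of Trav counts (percent) held by each of the 116 Trav segments in chromosomal order, with the Traj array beyond the right end, in KO 1, KO 2 and as the WT mean with SD (n = 4). Each panel has its own vertical scale. KO 1 has its tallest bar at Trav19 (30.3%) and KO 2 at Trav14d-3-dv8 (66.1%) in the left part, and the WT bars cluster at the right end.

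The leading Trav segments of the KO libraries were near 0 in WT. Trav19 stood at 11.4 CPM in KO 1 with no count in KO 2, and had 2 counts over all WT libraries. The ratio of KO to WT over pooled counts was 406, with a counting interval of 111 to 3370. Trav14d-3-dv8 stood at 0.102 CPM in KO 1 and 143 CPM in KO 2, against 0.048, 0.084, 0.115 and 0.105 CPM in WT. So the whole difference lay in KO 2. Trav14d-1 had 0 and 146 counts in KO and none in WT, at least 177-fold higher against 3 counts over the WT group. Its V exon is identical to that of Trav14n-1, and the 9 segments of the Trav14 family together held 3.39% of Trav counts in KO 1 and 78.0% in KO 2, against 3.94 to 4.77% in WT. None of Trav19, Trav14d-3-dv8 and Trav14d-1 passed the filter on low counts, so they have no test.

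Of the tested Trav, 3 rose and 2 fell in KO. Trav16 stood at 2.05 and 2.24 CPM in KO, against 0.652, 0.501, 0.536 and 0.422 CPM in WT, a log2 fold change of 2.09 ± 0.35 (SE, edgeR adjusted p = 0.0114). Trav13-1 stood at 1.07 and 3.28 CPM in KO, against 0.137 ± 0.0903 CPM in WT (log2 fold change 3.87, edgeR adjusted p = 0.0172), and Trav14-3 at 0.972 and 1.27 CPM in KO, against 0.218 ± 0.123 CPM in WT (2.67, edgeR adjusted p = 0.0228). All 3 had both KO libraries above WT, but Trav13-1 and Trav14-3, being low in WT, passed the filter only through the KO libraries.

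The 2 that fell are the WT leaders near the Traj array. Trav17 stood at 4.04 and 5.37 CPM in KO, against 9.12, 8.23, 7.43 and 7.69 CPM in WT, a log2 fold change of -0.75 ± 0.20 (SE, edgeR adjusted p = 0.0403). Trav18 stood at 1.43 and 3.35 CPM in KO, against 5.96, 5.81, 5.82 and 4.78 CPM in WT, a log2 fold change of -1.16 ± 0.28 (SE, edgeR adjusted p = 0.0329). Trav15-2-dv6-2, the other WT leader, stood at 1.02 and 6.41 CPM in KO, against 7.10, 6.52, 6.59 and 6.18 CPM in WT, so KO 2 lay inside the WT range and it was not called (edgeR adjusted p = 0.268). Its relative Trav15-1-dv6-1 stood at 0.716 and 4.40 CPM in KO, against 2.97, 2.71, 3.10 and 2.21 CPM in WT, on opposite sides (edgeR adjusted p = 0.847).

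Position along the Trav array was read as the share of Trav counts in the 58 of 116 segments nearest Traj, those from Trav12n-2 onwards. It was 83.2% in KO 1 (Wilson interval 80.3 to 85.7%) and 27.5% in KO 2 (25.9 to 29.2%), against 97.03%, 94.6%, 96.4% and 93.8% in WT 1 to WT 4. The last 20 segments held 76.5% and 15.3% in KO, against 82.6 to 84.3% in WT. Both KO libraries were lower than every WT library, KO 1 by a little and KO 2 by a lot. The 36 d copies, which lie farther from Traj, held 15.6% and 71.5% in KO, against 0.659 to 1.64% in WT, and the 32 n copies held 1.22% and 2.32% in KO, against 0.767 to 1.88% in WT. The difference between KO and WT means in the share nearest Traj was -40.1 percentage points. It was 3.10 points without the d and n copies, but nearly all segments far from Traj are such copies, so leaving them out fixes that value and says nothing of position. It was -67.9 points without KO 1 and -12.3 points without KO 2. The 10 segments that also serve δ held 11.9% in KO 1 and 73.4% in KO 2, against 36.5 to 41.1% in WT.

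Counts were found for 18 of the 51 Traj segments in KO 1, for 20 in KO 2 and for 6 in both. Each WT library had 3 to 10 Traj segments with a count, close to the detection limit, since 3 counts correspond there to 0.072 to 0.125 CPM. In KO 1 the leaders were Traj4 with 40 of 242 counts (16.5%, Wilson interval 12.4 to 21.7%), Traj17 with 30 and Traj9 with 27. In KO 2 they were Traj15 with 104 of 265 counts (39.2%, 33.6 to 45.2%), Traj3 with 43 and Traj59 with 33. The KO libraries thus differed in their Traj use as they did in V use, with an effective number of 10.5 segments in KO 1 and 4.89 in KO 2.

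Of the Traj segments, 3 passed the filter and could be tested. With so few WT counts, a Traj segment could pass only through counts in both KO libraries. That these 3 were seen in both and lay above WT was thus set by the filter, and their adjusted p-values are no separate support for a rise. Traj3, near the far end of the array, stood at 0.716 and 3.21 CPM in KO and had no count in WT, and rose at least 69.1-fold against 3 counts over the WT group (edgeR adjusted p = 0.0261). Traj22 stood at 1.18 and 0.447 CPM in KO, against 2 counts in WT 2 and none in the other WT libraries. It rose with a pooled ratio of 52.8 and a counting interval of 13.3 to 456 (edgeR adjusted p = 0.0371). Traj20 had the same 23 and 6 counts in KO as Traj22 and none in WT, and its edgeR adjusted p was 0.0554. Traj20 passed with DESeq2 (adjusted p = 0.0262), limma-voom (0.0175) and edgeR without the sex term (0.0234), in a range of 0.0175 to 0.253 over the alternatives that use both KO mice. Traj22 did not pass with limma-voom (adjusted p = 0.0937). Traj15 had no count in KO 1, 104 in KO 2 and 1 over WT, and was not tested.

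The 26 Traj segments nearest Trav held 21.1% of Traj counts in KO 1 (16.4 to 26.6%) and 26.4% in KO 2 (21.5 to 32.0%). In the WT libraries the share was 57.1%, 25%, 33.3% and 26.7%, but of 7, 4, 6 and 15 counts, with Wilson intervals as wide as 4.56 to 69.9%. A difference in Traj position was not detectable at this depth of WT counts. Traj59, the Traj segment nearest Trav, had 0 and 33 counts in KO and 3, 0, 1 and 3 counts in WT 1 to WT 4.

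**Figure D5:**
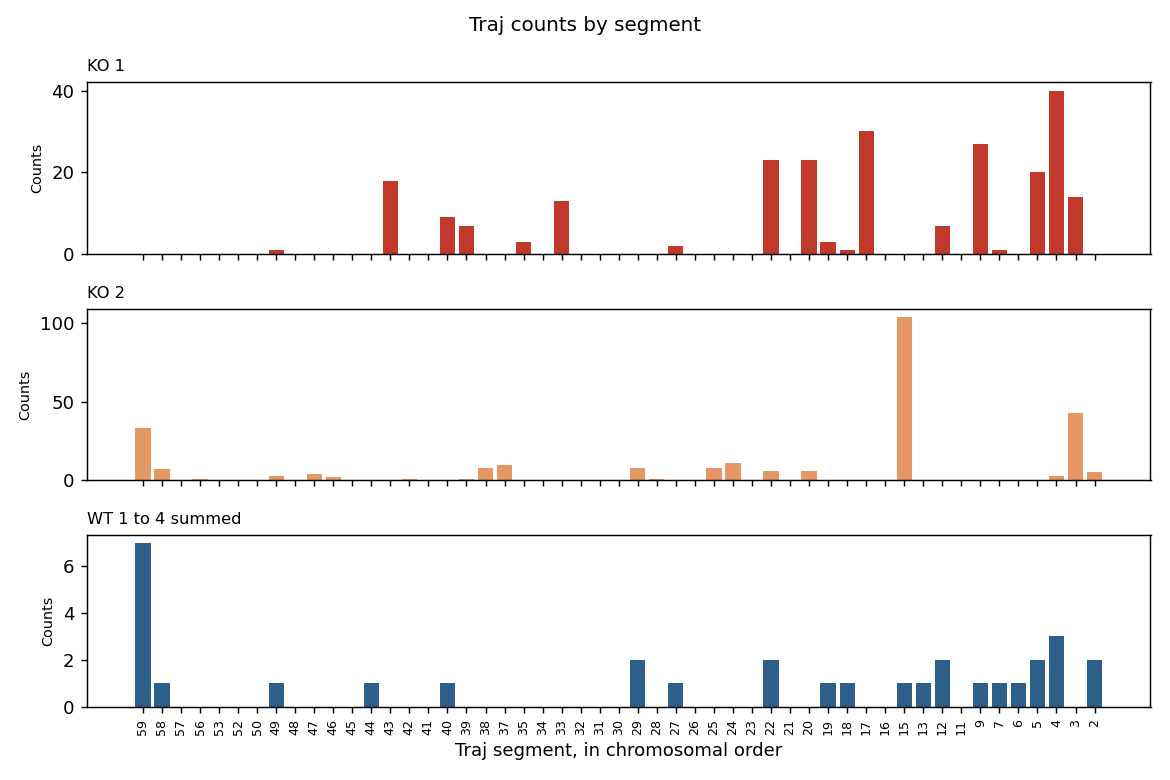
Counts of each of the 51 Traj segments in chromosomal order, with the Trav array beyond the left end, in KO 1, KO 2 and summed over the 4 WT libraries, each panel on its own scale. The tallest bars are Traj4 (40 counts) in KO 1 and Traj15 (104 counts) in KO 2, and the WT libraries hold 32 Traj counts together.

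Genes of the recombination reaction and of its control were read from a list of 25, of which 6 were called higher in KO, 7 lower and 12 not called, where the shares over all tested genes were 14.1% higher and 16.5% lower. Among those that rose were Lig4, the ligase that seals the joins (139.5 and 163 CPM in KO, 80.3 ± 8.60 CPM in WT, edgeR adjusted p = 0.000683), and Polm, a polymerase that fills the ends (23.2 and 14.9 CPM in KO, 4.33 ± 0.798 CPM in WT, edgeR adjusted p = 0.00637). Rad21, a cohesin subunit, also rose (edgeR adjusted p = 0.00601). Dntt, whose product adds non-templated bases at the joins, fell to 966 and 1545 CPM in KO, against 2859 ± 62.6 CPM in WT (edgeR adjusted p = 0.00652), and Runx1, a transcription factor, fell too (edgeR adjusted p = 0.00986). Rag1 stood at 521 CPM in KO 1 and 1951 CPM in KO 2, against 1476 to 1924 CPM in WT, and Rag2 at 32.6 and 114 CPM in KO, against 90.7 to 103 CPM in WT, so each was low in KO 1 and slightly above WT in KO 2, and neither was called.

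The 12 calls among the members depend on the test and on single libraries. DESeq2 kept all 12 and called 6 more members, and limma-voom with a separate weight for each genotype kept 3, namely Traj3, Trbj2-7 and Trbv17. Leaving out WT 1, WT 2 or WT 3 kept 1, 1 and 2 of the 12, Trbj2-7 being in each. WT 4 is the only male WT library, so without it the sex term took up KO 1. That fit compared KO 2 with WT 1 to WT 3, as did the fit without KO 1, where the term took up WT 4. The fit without KO 2 set KO 1 against WT 4. In each of these fits the KO effect rests on 1 KO mouse, so which calls they kept is not given. Their numbers of calls enter some ranges given below and are no measure of robustness. Trbv13-1, for example, had a log2 fold change of 5.32 without WT 4 and 5.33 without KO 1.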

How the data were processed

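Gene counts of 6 libraries were used, 2 KO and 4 WT. The authors deposited unnormalized counts, 1 row per Entrez identifier, made with featureCounts on mm10, per the submitters' processing notes, from unstranded SMART-Seq v4 libraries read as paired ends, per the labels' protocols. Not given in the sources used here are the aligner, the treatment of reads that match several segments or span 2 of them, and the overlap required. The whole table equals the 6 single-library tables. Symbols came by Entrez identifier from RefSeq GRCm38.p6 (25275 rows) or GENCODE (18), and 1039 rows stayed unnamed. Sequences came from GENCODE M21 for 204 of 206 members.

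The test was edgeR 4.0.16 in R 4.3.3, with filterByExpr by genotype with a count minimum of 10, TMM scaling, and a robust quasi-likelihood F-test of KO against WT with sex as an additive term (3 residual degrees of freedom). P-values were Benjamini-Hochberg adjusted over all 13294 genes kept, and calls needed a value under 0.05. SE is the log2 fold change over the square root of F. Wilson intervals are at 95%, and folds against 0 counts use a floor of 3 counts. The tests were tried on simulated counts. Alternatives were DESeq2 1.42.0, limma-voom (limma 3.58.1), other scaling, no filter, no sex term, a replicate block, and leaving out each library. Each library is a separate mouse.

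Segments named were all Trbd, Trbj with at least 10 counts, and in Trbv, Trav and Traj the 6 highest means, each library's most counted and those called. Other segments named were chosen after their values were seen. Members, gene lists and tests were chosen with earlier results of these data known. A gene that the rule names is not reported here.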

Additional observations from a re-analysis of the deposited data

Results flagged for a closer look

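Of 59 groups of WT values examined (each named segment, class sum and share over WT 1 to WT 4), 8 had 1 library set apart from the other 3 by a gap, as a part of the whole range, beyond the 95% limit of Dixon's test, which chance passes in about 1 group in 20. For Trbj1-1 the gap was 0.852 of the range, with WT 4 highest at 13.9 CPM. For Trbv13-2 it was 0.856 and for the share of the Trbv13 family 0.880, with WT 4 highest in both (106 CPM and 36.3%). WT 4, from the only male WT mouse, was also lowest in Trav18 (4.78 CPM), with a gap of 0.868. For Trbv3 the gap was 0.888, with WT 3 highest at 18.5 CPM. For Traj15, Traj22 and Traj29 it was 1, each from 1 WT library with 1 or 2 counts and the others at 0. Any segment counted in only 1 WT library gives a gap of 1, so the chance rate does not apply to them.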

How the results depend on the processing

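No result changed direction or lost its call under DESeq2 size factors in edgeR or unscaled library totals. Against 4076 genes called in all, limma-voom called 1500 and the replicate block 748, with 1665 to 9473 when 1 library was left out. Tra segments called higher numbered 5, with 13 unfiltered, 2 by limma-voom, 0 under the block and 0 to 20 with 1 library left out, and those called lower numbered 2, with 1, 0, 0 and 0 to 9. Trb segments called higher numbered 4, with 2 by limma-voom, 1 under the block and 1 to 2 without WT 1, WT 2 or WT 3. Those called lower numbered 1, with 2 unfiltered, 3 by DESeq2, 0 by limma-voom, 0 under the block and 0 to 19. The ranges for all genes, for Tra calls and for lower Trb calls span each library left out in turn. Their upper ends come from fits without KO 1 or KO 2, which rest on 1 KO mouse and measure no robustness. Without WT 1, WT 2 or WT 3, 1665 to 1743 genes were called, with 0 Tra and 0 lower Trb segments. The replicate numbers share no mouse or stated batch (correlations of deviations -0.140 and 0.027), so the block pairs numbers only. The block kept Trbv17 of the 12 calls.

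The log2 ratio of the Tra sums, 2.06, was 0.84 without d and n copies and 0.55 to 2.78 with 1 library left out. That of the Trb sums, 1.62, was 1.11 without the most counted Trbv of each library, an alternative chosen after seeing the data, and 1.41 to 1.81. The difference of -40.1 points in the Trav share nearest Traj was 3.10 without d and n copies, which make up nearly all segments far from Traj, -15.4 without the most counted segment and -67.9 to -12.3 with 1 library left out. That of -11.8 points in the Traj share nearest Trav was 1.03 without the most counted segment, and -15.3 to -4.59. The Trbj2 difference of 20.9 points was 15.7 and 16.4 to 25.4, and that of the most counted Trbv, 24.95 points, was 21.5 to 28.4.

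Uncalled segments that changed sign were Trbd2 (log2 0.12 without the sex term, -2.38 to 1.03 with 1 library left out), Trbj1-3 (0.38 by limma-voom, 0.80 without the sex term, 0.24 under the block, -1.53 to 1.34) and Trbv5 (-0.50 by limma-voom, -0.35 under the block, -2.08 to 1.42). With 1 library left out the ranges were -0.50 to 1.76 for Trbj1-4, -1.004 to 1.45 for Trbj1-5, -0.82 to 1.90 for Trbj1-7, -0.15 to 1.72 for Trbj2-2 and -0.67 to 1.53 for Trbj2-3. They were -0.62 to 5.33 for Trbv13-1, -0.22 to 1.22 for Trbv13-2, -1.63 to 2.84 for Trbv3 and -1.63 to 0.60 for Trav15-1-dv6-1. The cause of these changes was not tested. With 2 KO mice that differ in most segments, and with WT Traj counts of 4 to 15, the values describe these mice. Near-identical Trav copies and short D and J features limit what the counts can show.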
